A study of Mus musculus with 9 samples.

Results

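Scavenger receptors bind and internalise modified lipoproteins, polyanions, matrix fragments and microbes, and receptors for dead cells recognise the phosphatidylserine that a dying cell exposes, directly or through a bridging protein. The genes described here were chosen by name: the mannose receptor Mrc1, the stabilins Stab1 and Stab2, the hyaluronan receptor Lyve1, the class A scavenger receptors Msr1 and Marco, the phosphatidylserine receptor Timd4, the receptor tyrosine kinases Mertk and Axl, and Gas6, the ligand that bridges these kinases to phosphatidylserine. All 10 were found, each as 1 probe set, among 20405 probe sets with a gene symbol. In adults the stabilins and Lyve1 are known from the endothelium of sinusoids and lymphatic vessels, and Mrc1, Msr1, Marco, Timd4 and Mertk from tissue macrophages. Several of them are found in both cell types, so that none alone marks a lineage.

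Expression had been measured on Affymetrix mouse gene arrays in cells of the aorta-gonad-mesonephros (AGM) region, where blood stem cells first arise, of C57Bl6 mouse embryos at stage E11.5. Cells were sorted on CD144, the endothelial cadherin encoded by Cdh5, and on CD45, the leukocyte phosphatase encoded by Ptprc. The 3 groups were CD144+CD45- endothelial cells (EC), CD144+CD45+ cells that the submitters call hematopoietic stem/progenitor cells (HSPC) and CD144-CD45+ hematopoietic cells (HC), with 3 arrays each and no treatment or transgene named. Whether the arrays of a population stem from different embryo pools is not stated in the labels. The p-values thus reflect how far these particular samples scatter, and that scatter may be only technical. Each sorted group can hold several cell types.

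Levels are log2 values on the scale of the deposited data, where a difference of 1 is 2-fold. A difference passed the test, or was called, at a Benjamini-Hochberg adjusted p under 0.05 over all 20405 genes in limma, a linear model with a shared estimate of the spread. The files hold no detection calls, so background was set at 4.69, the value under which 95% of 1286 genes for odorant and vomeronasal receptors lay. Array medians lay between 5.41 and 5.51.

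The sort could be read from its own genes and from lists of marker genes. In EC, HSPC and HC in that order, the level of Cdh5 was 11.70 ± 0.14, 10.47 ± 0.68 and 5.79 ± 0.65, and that of Ptprc 4.42 ± 0.07, 8.90 ± 0.26 and 9.95 ± 0.10 (mean ± SD, n = 3). The summed level of 15 macrophage genes, as log2, ranged from 8.94 to 9.41 over the EC arrays, from 12.57 to 13.82 over HSPC and from 14.43 to 14.56 over HC. All 15 were above background on every HSPC and HC array, and 8 to 12 of them on the EC arrays, where the means of Adgre1, Aif1, Itgam and Cd14 were under it. For 12 endothelial genes it ranged from 13.91 to 14.13 over EC, from 12.01 to 13.25 over HSPC and from 9.10 to 9.77 over HC, where Tek, Esam and Sox17 were under background. The 12 granulocyte genes gave sums between 8.13 and 9.11 over EC, 10.88 and 11.39 over HSPC, and 13.77 and 14.09 over HC. All 12 were called higher in HC than in EC, but 4 of 12 in HSPC than in EC, beside 14.8% and 8.55% of all genes. In HSPC, Mpo (mean 10.44), Prtn3 (8.05), Csf3r (7.63) and Prg2 (6.52) were the genes that differed, and 8 of 12 were above background. The HSPC arrays were the most spread for macrophage genes: replicate 1 had the lowest mean of the 15 (7.97), replicate 3 a middle one (8.78) and replicate 2 the highest (9.37). In sorted populations fewer cells of a type and less RNA per cell cannot be told apart.

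The 10 genes did not share 1 pattern. Mrc1, Stab1, Mertk and Gas6 stood highest in HC, and Msr1 was far above EC in both HSPC and HC. Timd4 was highest in HSPC, Stab2 was highest in EC, and Stab1 was lowest in HSPC. Of 16 alternative settings, 6 kept the call of HSPC under HC for Mrc1 and 8 kept it for Mertk. The call of HSPC under EC for Stab1 was kept in 8 of 16. For Lyve1 no difference between populations passed in the fit of all arrays, though HC stood above EC without overlap. Marco stayed close to background, and Axl was slightly higher in HSPC and HC than in EC. The plot of levels by array shows these patterns together.

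**Figure D1:**
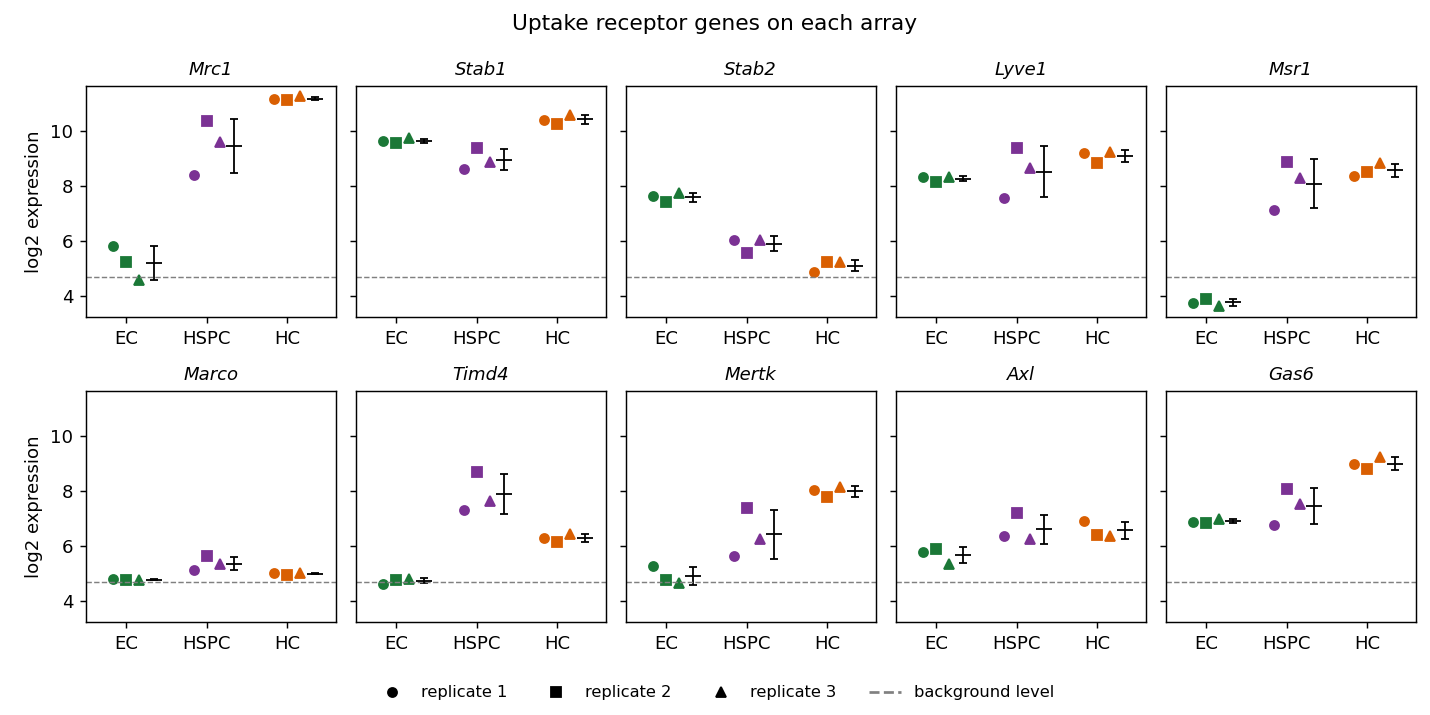
Log2 expression of the 10 uptake receptor genes in EC, HSPC and HC. Each symbol is 1 array, shaped by replicate number, the bars beside them are the mean ± SD of 3 arrays, and the dashed line is the background level of 4.69. Msr1 lies under that line in EC (mean 3.77) and Timd4 is highest in HSPC (mean 7.89).

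Promoter sequence is shown for 3 of these genes because it differs in 1 feature between genes that moved together: Mrc1 and Mertk both rose from EC through HSPC to HC, while Timd4 peaked in HSPC. The sequences are the 250 bases before the gene start in RefSeq's table for GRCm38.p6, which held 8 of the 10 genes (Lyve1 and Msr1 were not among them). Capitals mark GAGGAA or its reverse complement TTCCTC, a core of sites bound by Spi1, the Ets factor on which macrophages depend. The windows are chr2:14229164-14229413 (plus strand) for Mrc1, chr2:128698665-128698914 (plus strand) for Mertk and chr11:46810549-46810798 (plus strand) for Timd4.
Mrc1: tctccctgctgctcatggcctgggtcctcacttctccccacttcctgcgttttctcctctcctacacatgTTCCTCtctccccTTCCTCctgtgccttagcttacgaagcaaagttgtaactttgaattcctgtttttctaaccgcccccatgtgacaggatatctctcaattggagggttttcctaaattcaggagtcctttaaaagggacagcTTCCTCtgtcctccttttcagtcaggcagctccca
Mertk: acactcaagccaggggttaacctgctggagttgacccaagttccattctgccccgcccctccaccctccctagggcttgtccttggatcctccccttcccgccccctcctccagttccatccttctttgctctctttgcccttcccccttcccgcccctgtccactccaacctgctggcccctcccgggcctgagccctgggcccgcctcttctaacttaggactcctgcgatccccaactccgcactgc
Timd4: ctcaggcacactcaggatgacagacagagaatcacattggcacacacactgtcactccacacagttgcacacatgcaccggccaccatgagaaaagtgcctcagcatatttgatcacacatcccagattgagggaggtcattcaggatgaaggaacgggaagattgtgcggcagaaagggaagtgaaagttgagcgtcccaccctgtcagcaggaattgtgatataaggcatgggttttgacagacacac

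The Mrc1 window held this motif 3 times, each on the minus strand, with first bases 180, 167 and 35 bases before the start. The Mertk and Timd4 windows held it 0 times. Only exact copies were searched, so other forms of such sites were not counted. Of the 8 genes with a window, 4 held at least 1 match (Mrc1, Stab1, Marco and Axl), while 23.3% of the 32851 windows of the table did. A Maf factor core, TGCTGA or its reverse complement TCAGCA, was found in 2 of the 8, Stab1 and Timd4 (at 150 and 44 bases before the start of Timd4), and in 16.1% of all windows. These letters are a description of the windows and say nothing of whether a factor binds there.

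HC against EC sets CD45+ cells that lack CD144 beside the endothelium. Of the 10 genes 7 were higher in HC and 1 was lower. Over all genes tested, 14.8% were called higher and 12.6% lower in this comparison. The median difference of the 10 genes was 1.22 (range -2.48 to 5.96), beside a median of 0.05 over all genes. The genes had been named with earlier results of these data known, so the count describes them and is not independent support for a direction.

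Mrc1, a lectin receptor that clears mannose-bearing glycoproteins and collagen fragments, showed the largest of these differences. Its EC arrays read 5.81, 5.22 and 4.59, its HSPC arrays 8.38, 10.35 and 9.59 and its HC arrays 11.13, 11.11 and 11.24. No 2 groups overlapped, and the HC arrays were the most alike. HC exceeded EC by 5.96 ± 0.46 (SE), or 62.1-fold (adjusted p = 1.65e-05), and HSPC exceeded EC by 4.23 ± 0.46, or 18.8-fold (adjusted p = 0.000347). EC replicate 3 lay under background. HSPC was lower than HC by -1.72 ± 0.46 (adjusted p = 0.0367), a call that was lost when any 1 of 6 arrays was left out (EC replicate 2, HSPC replicate 1 or 3, or HC replicate 1, 2 or 3), with adjusted p from 0.0583 to 0.107. It was also lost after repeated quantile normalization (-1.60, adjusted p = 0.0546) and when only the HSPC and HC arrays were fitted (adjusted p = 0.0641), and 6 of 16 alternatives kept it.

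Msr1, the type A scavenger receptor of macrophages for modified lipoproteins, was not above background in EC, at 3.77, 3.92 and 3.63. It read 7.11, 8.87 and 8.27 in HSPC and 8.36, 8.49 and 8.82 in HC. Both CD45+ populations stood far above EC and overlapped with each other. Since EC lay at background, the folds are bounds: Msr1 was at least 14.6-fold higher in HC than in EC (adjusted p = 1.65e-05) and at least 10.5-fold higher in HSPC than in EC (adjusted p = 9.47e-05). The difference between HSPC and HC was -0.48, with a 95% confidence interval from -1.31 to 0.36 (adjusted p = 0.475). Without HSPC replicate 1 that difference was 0.01.

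Marco, the other class A scavenger receptor, is a macrophage receptor for bacteria and particles. Its levels were 4.82, 4.79 and 4.76 in EC, 5.14, 5.62 and 5.35 in HSPC and 5.02, 4.97 and 5.02 in HC. The HSPC arrays stood above all others, though the whole range is narrow and near background. The difference between HSPC and EC was 0.58 ± 0.11 (SE), or 1.49-fold (adjusted p = 0.00681). HSPC and HC differed by 0.36 (adjusted p = 0.0616), which passed without HSPC replicate 1 (0.48, adjusted p = 0.0132), when dim genes were left out (adjusted p = 0.049) and when arrays were quantile normalized once more (adjusted p = 0.0445). Under these 3 alternatives Marco was called higher in HSPC than in both other populations. HC and EC differed by 0.22 (adjusted p = 0.206), which passed when only their 6 arrays were fitted (adjusted p = 0.0368).

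**Figure D2:**
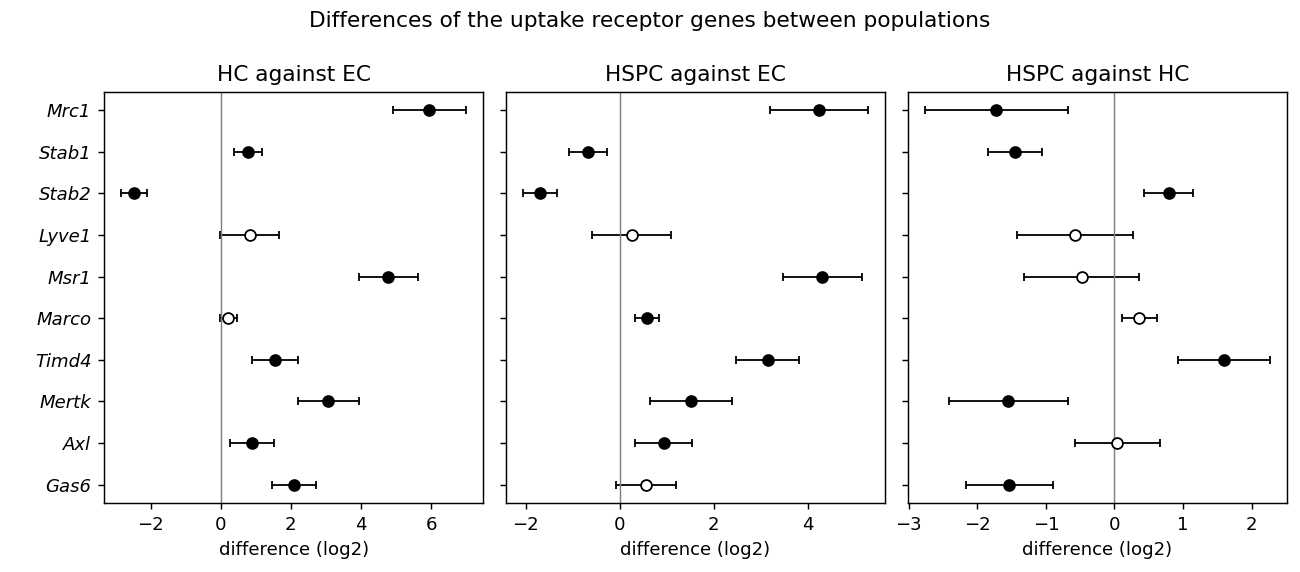
Differences of the 10 genes in the comparisons of HC with EC, HSPC with EC and HSPC with HC. The x axes give the log2 difference, bars are 95% confidence intervals of the fit over all 9 arrays, and filled points passed an adjusted p of 0.05. Timd4 is positive in all 3 panels, and Stab2 is negative against EC at -2.48 for HC and -1.69 for HSPC.

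The stabilins, large related receptors with fasciclin and EGF-like repeats that take up modified lipoproteins and, for Stab2, hyaluronan, went separate ways. Stab2 read 7.61, 7.40 and 7.74 in EC, 6.05, 5.58 and 6.05 in HSPC and 4.87, 5.23 and 5.22 in HC. The 3 groups did not overlap, and levels stepped down from EC to HC. Stab2 was lower in HC than in EC by -2.48 ± 0.16 (SE), or 5.58-fold (adjusted p = 6.78e-06), lower in HSPC than in EC by -1.69 ± 0.16, or 3.23-fold (adjusted p = 0.000164), and higher in HSPC than in HC by 0.79 ± 0.16 (adjusted p = 0.011).

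Stab1 was high everywhere, at 9.61, 9.54 and 9.72 in EC, 8.61, 9.37 and 8.87 in HSPC and 10.39, 10.25 and 10.57 in HC. Again no groups overlapped, but here HSPC was the lowest and HC the highest. HC exceeded EC by 0.78 ± 0.18 (SE), or 1.72-fold (adjusted p = 0.00907), and HSPC lay under HC by -1.45 ± 0.18, or 2.73-fold (adjusted p = 0.000984). HSPC was also lower than EC, by -0.67 (adjusted p = 0.0301). This last call was lost without EC replicate 1, 2 or 3, HSPC replicate 1 or 3, or HC replicate 1, with adjusted p from 0.0506 to 0.0967, and with only the HSPC and EC arrays fitted (adjusted p = 0.0756).

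Lyve1, a receptor for hyaluronan related to Cd44, is used as a marker of lymphatic endothelium and is also carried by embryonic macrophages. It read 8.32, 8.15 and 8.30 in EC, 7.55, 9.36 and 8.63 in HSPC and 9.18, 8.84 and 9.23 in HC. HC stood above EC without overlap, while the HSPC arrays spanned the whole range of both. No Lyve1 difference passed: HC against EC was 0.83 (95% confidence interval -0.01 to 1.67, adjusted p = 0.145), HSPC against EC 0.26 (-0.59 to 1.10, adjusted p = 0.776) and HSPC against HC -0.57 (-1.42 to 0.27, adjusted p = 0.382). Without HSPC replicate 1, Lyve1 passed in HSPC against EC (0.74, adjusted p = 0.0479) and in HC against EC (0.83, adjusted p = 0.0116). Without HSPC replicate 2, it passed in HC against EC (adjusted p = 0.0412) and in HSPC against HC (-0.996, adjusted p = 0.0492), and HSPC against EC turned to -0.17. The shared estimate of the spread takes in the HSPC arrays (SD 0.91, beside 0.10 in EC and 0.22 in HC). When only the 6 EC and HC arrays were fitted, the difference of 0.83 had an adjusted p of 0.00228.

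Among genes that mark lymphatic or venous endothelium, Prox1, the transcription factor that sets lymphatic identity, stood at 7.64 in EC and 5.99 in HC (difference -1.65, adjusted p = 0.000445). Podoplanin, Pdpn, was at 5.60 and 5.47 (adjusted p = 0.61). Of the 12 genes of the sinusoidal, venous and lymphatic list, 7 were lower and 2 higher in HC than in EC, and 7 were lower and 1 higher in HSPC than in EC. Over all genes 12.6% were lower and 14.8% higher in the first comparison, and 7.94% lower and 8.55% higher in the second. The genes of liver sinusoidal endothelium in that list did not move together. Oit3 was lower than in EC, by -1.66 in HC and -1.46 in HSPC (adjusted p = 0.000103 and 0.000603). Fcgr2b, an Fc receptor also carried by macrophages and B cells, was at least 2.59-fold higher in HC (adjusted p = 2.56e-05), and Dnase1l3 at least 1.15-fold higher (adjusted p = 0.00498). The HSPC mean of Clec4g was at least 1.18-fold higher than in EC (adjusted p = 0.0443), though the HSPC arrays read 5.43, 4.97 and 4.39, the last under background.

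HSPC and EC both carry CD144, and their comparison asks what the CD45+ ones add. Of the 10 genes 6 were higher in HSPC and 2, Stab1 and Stab2, were lower, the first of these with the dependence on single arrays given above. The count of higher genes was 4 in the fit of 6 arrays and ran from 4 (without EC replicate 2 or 3) to 8 (without HSPC replicate 1) when 1 array was left out. The shares over all genes were 8.55% higher and 7.94% lower. Of all called genes 51.8% were higher in HSPC, a share that was 41.3% after each array was centred on its median. The median difference was 0.76 for the 10 genes and 0.01 for all genes. The comparison shares its EC arrays with the one before it.

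Timd4, a receptor that binds phosphatidylserine directly and tethers dead cells to resident macrophages, was the 1 gene of the 10 that was called higher in HSPC than in both other populations in the fit of all arrays, where Marco missed the threshold against HC. Over all genes, 1.27% (259) were. It read 4.64, 4.77 and 4.82 in EC, 7.32, 8.70 and 7.64 in HSPC and 6.29, 6.15 and 6.43 in HC. The lowest HSPC array stood above the highest HC array, and every HC array above every EC array. HSPC exceeded EC by 3.14 ± 0.29 (SE), or 8.84-fold (adjusted p = 0.00016), and HC by 1.60 ± 0.29, or 3.02-fold (adjusted p = 0.00737). HC exceeded EC by 1.55 ± 0.29, or 2.92-fold (adjusted p = 0.00362). The EC mean of 4.74 is next to the background level.

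All 3 Timd4 differences passed under each of the 16 alternatives, among them leaving out any 1 array. Without HSPC replicate 2, the highest array, HSPC still exceeded HC by 1.19, the lowest value in that series. Its relatives Timd2 and Havcr1, of which Havcr1 is also a phosphatidylserine receptor, had group means between 3.14 and 3.42, under background in all 3 populations. Havcr2, a phosphatidylserine receptor of the same family, was under background as well, with its highest mean of 4.54 in HC.

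Mertk and Axl belong to 1 family of receptor kinases, with Tyro3, and signal when Gas6 or protein S (Pros1) links them to phosphatidylserine. Mertk read 5.30, 4.77 and 4.68 in EC, 5.65, 7.40 and 6.27 in HSPC and 8.03, 7.77 and 8.16 in HC. The groups did not overlap, and HSPC lay between the others with a wide spread. HC exceeded EC by 3.07 ± 0.38 (SE), or 8.40-fold (adjusted p = 0.000282). HSPC exceeded EC by 1.52 ± 0.38 (adjusted p = 0.0249) and lay under HC by -1.55 ± 0.38 (adjusted p = 0.0269). The first was lost without EC replicate 2 or 3 or HSPC replicate 3 (adjusted p 0.0569 to 0.0855), the second without HSPC replicate 1 or 3 or HC replicate 1, 2 or 3 (0.0574 to 0.0916). When only the 6 arrays compared were fitted, both were lost (adjusted p = 0.0807 and 0.0676).

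Axl varied less. It read 5.80, 5.89 and 5.34 in EC, 6.35, 7.22 and 6.25 in HSPC and 6.92, 6.42 and 6.36 in HC. EC lay under both CD45+ populations, which overlapped. Axl exceeded its EC level by 0.89 in HC (adjusted p = 0.0378) and by 0.93 in HSPC (adjusted p = 0.0472). The first call was lost without any 1 EC or HC array (adjusted p 0.0538 to 0.131), the second without any 1 EC or HC array or HSPC replicate 2 (0.0506 to 0.152), and the second also after repeated quantile normalization (0.0662) and median centring (0.064) and with only the HSPC and EC arrays fitted (0.0947). HSPC and HC differed by 0.04 (95% confidence interval -0.57 to 0.66), a difference that changed sign without HSPC replicate 2 or HC replicate 2 or 3 (-0.26 to -0.03).

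Tyro3, the remaining receptor of the family, had means of 4.87, 4.79 and 4.85 in EC, HSPC and HC, with no difference that passed (adjusted p 0.52 to 0.86). Of the bridging ligands, Gas6 read 6.86, 6.85 and 6.998 in EC, 6.76, 8.07 and 7.54 in HSPC and 8.96, 8.79 and 9.23 in HC. HC stood clear of the rest, and HSPC overlapped with EC. Gas6 was higher in HC than in EC by 2.09 ± 0.28 (SE), or 4.25-fold (adjusted p = 0.000443). HSPC fell short of HC by -1.54 ± 0.28, or 2.90-fold (adjusted p = 0.007). HSPC against EC gave 0.55 (adjusted p = 0.262), and 0.90 (adjusted p = 0.00907) without HSPC replicate 1. Pros1 was lower in HSPC (7.33) than in HC (8.59), by -1.25 (adjusted p = 0.00907), and its EC mean of 8.05 differed from neither (adjusted p = 0.144 against HC and 0.0843 against HSPC).

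HSPC against HC sets CD144+ beside CD144- cells among those with CD45. Of the 10 genes 2 were higher in HSPC (Stab2 and Timd4) and 4 were lower (Mrc1, Stab1, Mertk and Gas6). Over all genes 7.01% were called higher and 7.61% lower. The median was -0.52 for the 10 genes and -0.03 for all genes. With any 1 of HSPC replicate 1, HSPC replicate 3 or the HC replicates left out, 2 of the 4 lower calls (Stab1 and Gas6) were left. The macrophage list moved in the same direction, with 13 of its 15 genes lower in HSPC, 0 higher and a median of -1.49, and its part in these differences was not tested.

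The spread among HSPC arrays followed the same order in most of the 10 genes as in the macrophage list. In 8 of the 10 genes replicate 1 was the lowest HSPC array and replicate 2 the highest, as in 14 of the 15 macrophage genes. The gap between these arrays was 1.96 for Mrc1, 1.81 for Lyve1, 1.75 for Msr1, 1.75 for Mertk, 1.38 for Timd4 and 1.31 for Gas6, beside 1.40 for the mean of the macrophage list. The exceptions were Stab2, which ran the other way (-0.47), and Axl, whose lowest HSPC array was replicate 3. This order was not particular to macrophage genes. The mean of the erythroid marker list was 7.84, 8.12 and 8.36 in HSPC replicates 1, 3 and 2. That of the endothelial list ran the other way (9.36, 8.70 and 8.04), as did the sinusoidal, stem and progenitor, and mesenchymal lists. The mean of the granulocyte list followed neither order. Its summed level followed that of the macrophage genes, at 10.88, 11.34 and 11.39 in HSPC replicates 1, 3 and 2. The share of all genes with this order was not counted.

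To set the genes beside the macrophage list, each was also expressed relative to the mean of the 15 macrophage genes on its own array, a measure chosen after the data were seen and given without a test. That mean was lower in HSPC (8.71) than in HC (10.22), so a gene at an equal level in both populations reads 1.51 higher in HSPC on this scale. Mrc1, Stab1, Mertk and Gas6, the genes called lower in HSPC, differed between HSPC and HC by -0.21, 0.06, -0.04 and -0.03. Gas6 was the tightest among the HSPC arrays, with -1.25 ± 0.05 (SD, n = 3) in HSPC and -1.23 ± 0.24 in HC. Timd4 read -0.82 ± 0.28 in HSPC and -3.93 ± 0.17 in HC, a difference of 3.11 that was 3.02 without HSPC replicate 1 and 3.03 without replicate 2. Lyve1 (0.94) and Msr1 (1.03) also read higher in HSPC, with SDs of 0.20 to 0.27 in each group. The values were 1.55 for Axl, 1.87 for Marco and 2.30 for Stab2. For Stab1 and Axl the SD over HSPC arrays was 0.35 and 0.46 on this scale, beside 0.39 and 0.53 for the levels. For Marco and Stab2 it was larger on this scale, at 0.46 and 0.94, beside 0.25 and 0.27.

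**Figure D3:**
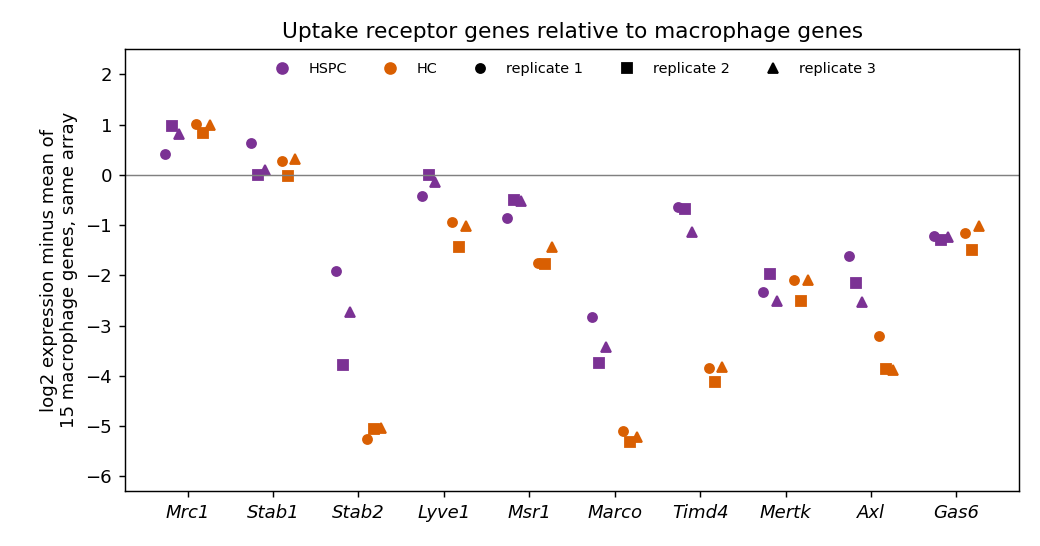
Log2 expression of the 10 genes minus the mean of 15 macrophage genes on the same array, for the 3 HSPC and 3 HC arrays. Each symbol is 1 array. Gas6 and Mertk arrays of both populations fall together, while Timd4 lies at -0.82 in HSPC and -3.93 in HC on average.

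Genes with the most similar pattern over the 9 arrays were listed for each of the 9 genes with a call. The arrays fall into 3 populations, so that these coefficients mostly restate the order of the group means. Timd4 was closest to Fcna (Pearson r = 0.995), a secreted lectin of macrophages, which had means of 5.81 in EC, 8.89 in HSPC and 7.38 in HC, followed by the transporter gene Abca2 (0.984). Fcna (0.968) and Abca2 (0.959) were also among the 3 closest to Marco. Mrc1 was closest to Gm2a, Ctss and C3ar1 (0.998 each), genes of lysosomal degradation and of a complement receptor, and Msr1 to Btk, a kinase of B cells and myeloid cells (0.995). For Mertk the closest was Lrp1, an endocytic receptor that also takes part in dead-cell uptake (0.996). Gas6 was closest to Ltc4s, the leukotriene C synthase (0.995), Stab2 to the integrin gene Itga2 (0.996), Stab1 to Hivep2 (0.974) and Axl to Ubxn11 (0.976).

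Other scavenger receptors were measured for 23 genes of 23 listed. Of these, 8 were higher and 1 lower in HC than in EC, with a median of 0.14, 4 and 1 in HSPC against EC, with a median of 0.06, and 1 and 7 in HSPC against HC, with a median of -0.11. Medians over all genes were 0.05, 0.01 and -0.03. Over all genes 14.8% were called higher and 12.6% lower in HC against EC. The shares were 8.55% and 7.94% in HSPC against EC, and 7.01% and 7.61% in HSPC against HC. The counts of the lists below stand beside the same shares. Cd68, a lysosomal glycoprotein of macrophages, was 4.49 higher in HC than in EC and 3.24 higher in HSPC (adjusted p = 1.18e-05 and 0.000228). The endotoxin coreceptor Cd14 was at least 11.1-fold higher in HC than in EC (adjusted p = 0.000102). Olr1, a receptor for oxidised lipoprotein, had a mean of 5.72 in HC and was under background in EC and HSPC, so that HC was at least 2.04-fold higher than either (adjusted p = 2.71e-06 and 1.12e-05). Scarf1, an endothelial receptor for acetylated lipoprotein and for dead cells, went against the rest: it was lower in HC than in EC by -2.15 (adjusted p = 2.01e-06) and in HSPC by -0.57 (adjusted p = 0.00512), and higher in HSPC than in HC by 1.58 (adjusted p = 6.6e-05).

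Cd36, a fatty acid and dead-cell receptor, was higher in HC (8.38) than in EC (7.06, adjusted p = 0.00156) and HSPC (7.16, adjusted p = 0.00635). In contrast, the haemoglobin scavenger receptor Cd163 was under background in all 3 populations, with means of 3.52, 3.56 and 3.67. The group means of Scara5 were under it too. Colec12, a scavenger receptor with a lectin domain, stood at 6.64, 6.80 and 7.18 in EC, HSPC and HC with no call (adjusted p 0.118 to 0.768), and Mrc2, the collagen receptor related to Mrc1, at 5.37, 5.67 and 5.42 (adjusted p 0.16 to 0.825).

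**Figure D4:**
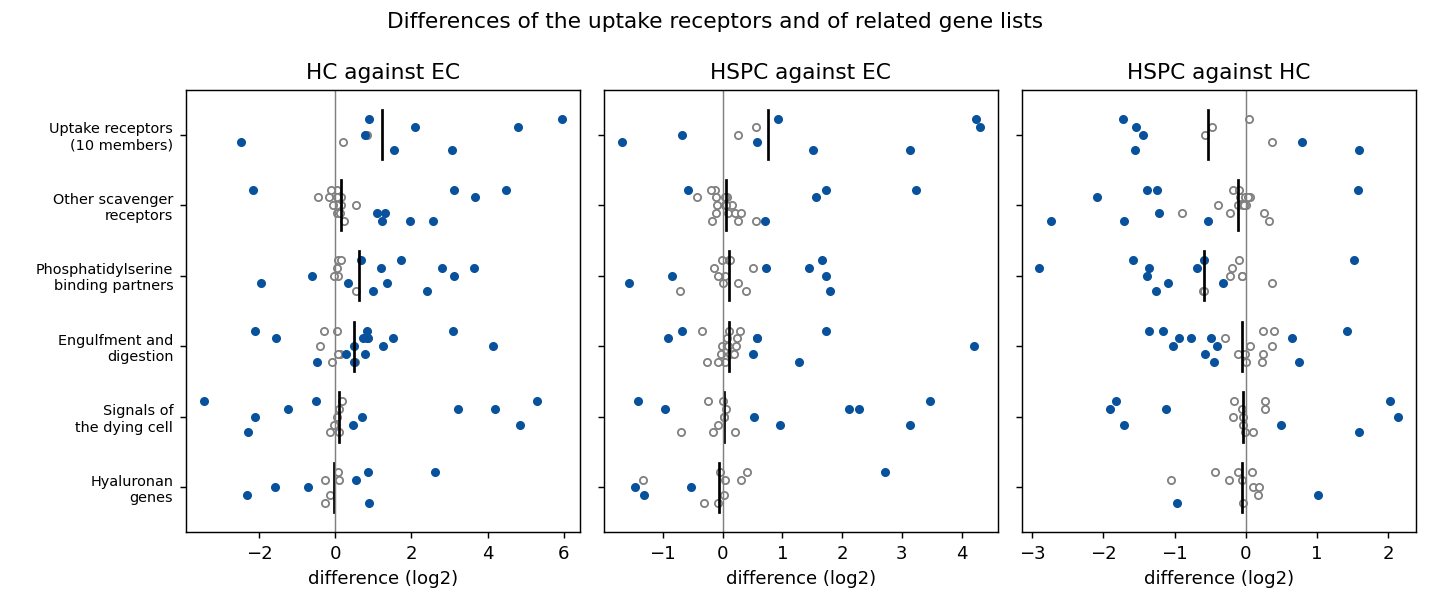
Log2 differences of the 10 uptake receptor genes and of 5 related gene lists in the 3 comparisons. Each point is 1 gene, filled where its adjusted p was under 0.05, and the upright bar is the median of the list. The median of the 10 genes is 1.22 in HC against EC, and that of the other lists lies between -0.04 and 0.61.

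Partners in phosphatidylserine recognition were measured for 18 genes, of which 10 were higher and 2 lower in HC than in EC (median 0.61), 5 and 2 in HSPC against EC (0.11) and 1 and 9 in HSPC against HC (-0.59). The largest differences were those of Anxa1, an annexin exposed on dying and myeloid cells (3.63 in HC against EC, adjusted p = 1.62e-06), and Lrp1, which is in the list of scavenger receptors as well (3.13, adjusted p = 0.00017). Itgb5, a chain of an integrin that binds dead cells through Mfge8, was 2.81 higher in HC and 1.45 higher in HSPC than in EC (adjusted p = 2.69e-05 and 0.00293). Cd300a, an inhibitory phosphatidylserine receptor, was 2.40 and 1.80 higher (adjusted p = 4.71e-05 and 0.000726). Mfge8, the bridging ligand for these integrins, was lower than in EC by -1.94 in HC and -1.57 in HSPC (adjusted p = 5.61e-05 and 0.000565), opposite to Gas6 in HC. Anxa5 was lower too, by -0.62 and -0.84 (adjusted p = 0.00473 and 0.00165). Itgb3, the other integrin chain of this system, was the 1 partner higher in HSPC than in HC, at 7.66 against 6.14 (difference 1.52, adjusted p = 0.000263).

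Genes of engulfment and digestion were measured for 22 of 24 listed. In HC against EC 12 were higher and 3 lower (median 0.50), in HSPC against EC 5 and 2 (0.11), and in HSPC against HC 3 and 9 (-0.06). Dock1 and Dock2 are related exchange factors that activate Rac during uptake. Dock2, the leukocyte form, was at least 14.4-fold higher in HC and at least 15-fold higher in HSPC than in EC (adjusted p = 6.17e-07 and 1.05e-06). Dock1 was lower, by -1.55 in HC and -0.91 in HSPC (adjusted p = 1.65e-05 and 0.000983), and Gulp1, an adaptor of engulfment receptors, by at least 3.19-fold in HC (adjusted p = 1.07e-05) and by -0.68 in HSPC (adjusted p = 0.0129). The adaptor gene Crk was lower in HC by -0.48 (adjusted p = 0.00392). Elmo1, the partner of Dock proteins, was 0.27 higher in HC and 0.52 higher in HSPC (adjusted p = 0.0226 and 0.00153). Dnase2a, which degrades the DNA of engulfed cells in lysosomes, rose to 8.21 in HC and 6.85 in HSPC from 5.12 in EC (adjusted p = 2.18e-05 and 0.00156). Nr1h3, a sterol-sensing receptor that is induced by cargo lipids in macrophages, was highest in HSPC, at 6.33 against 5.06 in EC and 5.58 in HC (adjusted p = 0.00139 and 0.0241).

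Among signals of dying cells and their sensors, 17 of 20 listed genes were measured. In HC against EC 6 were higher and 5 lower (median 0.10), in HSPC against EC 6 and 2 (0.02), and in HSPC against HC 4 and 4 (-0.04). The sensors rose: Cx3cr1, the fractalkine receptor, by 5.29 in HC and 3.47 in HSPC (adjusted p = 1.03e-05 and 0.000332), and the nucleotide receptor P2ry6 by 4.84 and 3.13 (adjusted p = 7.09e-06 and 0.000234). P2ry12, a relative of P2ry6 on microglia and platelets, was at least 15.8-fold higher in HC and at least 4.21-fold higher in HSPC than in EC (adjusted p = 2.59e-05 and 0.00217). Pecam1, an adhesion protein of endothelium that also keeps viable cells from being engulfed, was lower than in EC by -3.45 in HC and -1.41 in HSPC (adjusted p = 3.58e-05 and 0.0122). Of the genes that move phosphatidylserine across the membrane, the flippase gene Atp11a was lower by -1.24 and -0.96 (adjusted p = 0.000624 and 0.00523), and the scramblase gene Ano6 by -0.51 in HC (adjusted p = 0.0236). The fractalkine gene itself, Cx3cl1, was lower in HC than in EC by -2.29 (adjusted p = 4.42e-05). Cd47, the protein that holds off phagocytes, was highest in HSPC, at 10.27 against 9.31 in EC and 9.78 in HC (adjusted p = 3.1e-05 and 0.00171), while its receptor Sirpa was highest in HC at 10.95 and exceeded EC in HSPC by 2.12 (adjusted p = 0.000193). Cd24a, another such signal, was lowest in HC, at 8.54, and alike in EC and HSPC, at 10.66 and 10.68. It was called lower in HC than in EC, and HSPC exceeded HC by 2.14 (adjusted p = 0.00172).

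Hyaluronan genes, which bear on Lyve1 and Stab2 as receptors of this sugar polymer, were called for 7 of 12 in HC against EC (4 higher, 3 lower), for 4 in HSPC against EC (1 higher, 3 lower) and for 2 in HSPC against HC (1 each way). The higher call in HSPC against EC and both calls in HSPC against HC were near the shares over all genes. Those were 8.55% in the first, and 7.01% higher and 7.61% lower in the second. The medians were -0.04, -0.06 and -0.05. Cd44, the main hyaluronan receptor of leukocytes, rose by 2.62 in HC and 2.71 in HSPC (adjusted p = 3.97e-06 and 8.84e-06), unlike Lyve1. The hyaluronan-degrading genes Hyal2 and Cemip2 were lower in HC than in EC by -2.33 and -1.57 and in HSPC by -1.31 and -1.47 (adjusted p from 8.4e-06 to 0.00343). Hyal1, a lysosomal hyaluronidase gene, was under background in HSPC and HC and at least 1.23-fold lower there than in EC (adjusted p = 0.0474 and 0.00725). Tgfbi, a secreted matrix protein with fasciclin domains like those of the stabilins, was 0.88 higher in HC than in EC (adjusted p = 0.0299), and HSPC lay under HC by -0.97 (adjusted p = 0.0355). The synthases Has1 and Has3 were under background in all 3 populations, and Has2 gave no call (adjusted p 0.0819 to 0.86).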

How the data were processed

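Gene expression had been measured in 9 sorted samples, 3 of each population, from E11.5 embryos. The authors deposited log2 values per probe set, made with RMA and Partek per the submitters' processing notes. The labels name the mouse gene 1.0 and 2.0 ST arrays and Ovation Pico amplification; which array version each sample or population was run on is not stated, so an effect of the version on differences between populations was not tested. The sources used here give no versions, genome build or probe-set definition. Amplification of small RNA amounts and summarization into 1 value per gene can compress differences of dim genes, and isoforms are not separated.

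Of 21115 probe sets, 20405 had 1 platform gene symbol and 710 had none and were left out. Named were the 10 genes, from each of 5 related lists the 4 genes with the largest called difference and those called against the list's majority, 11 relatives and partners, and up to 3 genes most correlated with each called gene. Timd2, Havcr1, Havcr2, Cd47, Has1, Has2, Has3, Prox1, Pdpn, Oit3, Fcgr2b, Dnase1l3, Clec4g, Mpo, Prtn3, Csf3r, Prg2 and the marker genes named at background were chosen after their values were seen. Members and lists were chosen with earlier results of these data known. One limma 3.58.1 model (R 4.3.3) was fitted to all 9 arrays with a mean per population (6 residual and 2.75 prior degrees of freedom), moderated by eBayes, with two-sided tests and Benjamini-Hochberg adjustment over 20405 genes. An exact permutation test of 3 against 3 arrays cannot go below p = 0.1 and was not used. For a group mean at or under background (4.69), the fold is a bound, from the brighter group's mean against, per array, the higher of the background level and the dim gene's own value. The number of arrays limits the precision. The fit was tested on simulated data that had the same spread in all 3 populations. That test does not cover the wider spread of the 10 genes among HSPC arrays. Alternatives were repeated quantile normalization, median centring, dim genes left out, trended and robust moderation, the 6 arrays of each comparison alone, a replicate block, an adjusted p of 0.01 and leaving out each array.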

Additional observations from a re-analysis of the deposited data

How the results depend on the processing

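Of 480 repeats of the 30 differences of the 10 genes, 414 kept direction and side of the threshold, 50 lost the call, 10 gained it and 6 changed sign. With 3 arrays a group, calls near an adjusted p of 0.05 turned on single arrays, and genes near background, such as Marco, have little range in which to differ. At an adjusted p of 0.01 the genes called over the array fell from 3366 to 2061 in HSPC against EC and from 2983 to 1482 in HSPC against HC.

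In HSPC against EC, 6 of the 10 genes were higher, 5 after quantile normalization or median centring, 4 in the fit of 6 arrays alone, 4 at an adjusted p of 0.01 and 4 to 8 with any 1 array left out. There 2 were lower, 1 in the fit of 6 arrays alone, 1 at an adjusted p of 0.01 and 1 to 2 with any 1 array left out. In HSPC against HC, 4 were lower, 2 in the fit of 6 arrays alone, 2 with the replicate block, 2 at an adjusted p of 0.01 and 2 to 5 with any 1 array left out, while 2 were higher and 1 was at an adjusted p of 0.01. The signs that changed were those of Axl in HSPC against HC (0.04, -0.00200 after quantile normalization, -0.26 to 0.22 with 1 array left out), Lyve1 in HSPC against EC (0.26, -0.17 to 0.74) and Msr1 in HSPC against HC (-0.48, -0.87 to 0.0072). Relative to the macrophage mean, a measure chosen after seeing the data, Stab1 in HSPC against HC went from -1.45 to 0.0591. Lyve1 went from -0.57 to 0.94 and Msr1 from -0.48 to 1.03 there, though neither was called in the main fit. The cause was not tested.

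Deviations from the group means were compared between arrays of different populations. The 9 correlations of arrays with the same replicate number ran from -0.04 to 0.15, with 1 above 0.1. Those of arrays with different numbers ran from -0.14 to 0.15. Whether the numbers pair the samples cannot be decided from these values, since a correlation over all genes can stay low when a pairing touches few of them. With the replicate block the calls of Mrc1 (adjusted p = 0.0616) and Mertk (0.0516) in HSPC against HC were lost.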
